A study of Arabidopsis thaliana with 2 samples.

Results

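Gibberellins are plant hormones that promote growth, and their level is set by enzymes that make them and enzymes that break them down. The regions examined were the loci of 8 Arabidopsis thaliana genes of gibberellin metabolism. The 4 synthesis genes were GA20OX1 (AT4G25420), GA20OX2 (AT5G51810), GA3OX1 (AT1G15550) and GA3OX2 (AT1G80340). The 4 genes grouped here as breakdown genes were ELA1 (AT5G24910, also CYP714A1), ELA2 (AT5G24900, also CYP714A2), GA2OX1 (AT1G78440) and GA2OX2 (AT1G30040). These loci held 5 of the 4882 intervals bound by the transcription factor LEAFY (LFY) on amplified DNA and 22 of the 22514 intervals bound on native DNA.

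The assay was DNA affinity purification sequencing, in which a tagged protein made in vitro is mixed with sheared genomic DNA and the bound fragments are sequenced. In the ampDAP sample (1 library) the DNA had been copied by PCR, which removes cytosine methylation, and it came from seedlings for which no transgene is named. In the DAP sample (1 library) the DNA was native and came from 35S::LFY seedlings, a line in which LFY is driven by the viral 35S promoter. In both, per the labels, LFY carried 5 Myc tags, was produced by coupled transcription and translation, and was offered DNA of seedlings grown for 2 weeks in long days on 0.5-strength Murashige and Skoog medium. The plant source and the kind of DNA cannot be told apart in this design. The DNA was free of chromatin, so an interval is a place called as bound by LFY in vitro, and no expression was measured. With 1 library per list and the calling threshold unknown, a single interval may be a false call.

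GA20OX and GA3OX enzymes carry out the last oxidation steps that yield active gibberellins, and GA2OX enzymes inactivate them. ELA1 and ELA2 are cytochrome P450 enzymes related to rice EUI, a gibberellin-deactivating enzyme. Their place among the breakdown genes was assigned and was not tested here. LFY is a regulator that gives new primordia on the shoot their floral identity, and in Arabidopsis gibberellin level is known to bear on when flowers are formed. In plants ELA1 has been described as a LFY target.

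An interval is a 400 bp stretch listed by the authors, without height, score or p-value, and the sequencing depth behind it is unknown. The chosen windows were the gene with 3 kb upstream and 1 kb downstream. The gene table used here gives no strand, so intervals were collected over the gene and 3 kb on each side, and a place beside a gene is given as its lower-coordinate or higher-coordinate side. Intervals in the gene or overlapping the nearest 1 kb on either side belong to the windows under any strand. Depending on the strands, the chosen windows would hold 2 to 5 ampDAP and 16 to 21 DAP intervals, against 5 and 22 with 3 kb on each side. Coordinates are those of the files, in the build TAIR10. An interval was called shared when an interval of the other list overlapped at least 50% of it.

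An ampDAP interval lay within 3 kb of 3 of the 8 genes, ELA1, GA2OX2 and GA20OX1, whereas 32.6% of the 27444 protein-coding nuclear genes had one. A DAP interval lay within 3 kb of 8 of 8 genes, against 82.3% of protein-coding genes. With 8 genes, neither count lies far from these shares. Within 1 kb, 2 of the 8 genes had an ampDAP interval, against 19.9% of protein-coding genes. With 1 library for each kind of DNA there was no test between the lists, and all comparisons describe these 2 libraries. The 8 genes averaged 0.625 ampDAP intervals each, against 0.402 over all protein-coding genes, and 2.75 DAP intervals each, against 1.94. The medians were 0 ampDAP intervals in both sets of genes, and 2.5 DAP intervals at the 8 genes against 2 over all genes. The higher ampDAP average rests on ELA1. Without it the averages were 0.25 per synthesis gene and 0.333 per breakdown gene, both below 0.402.

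**Figure D1:**
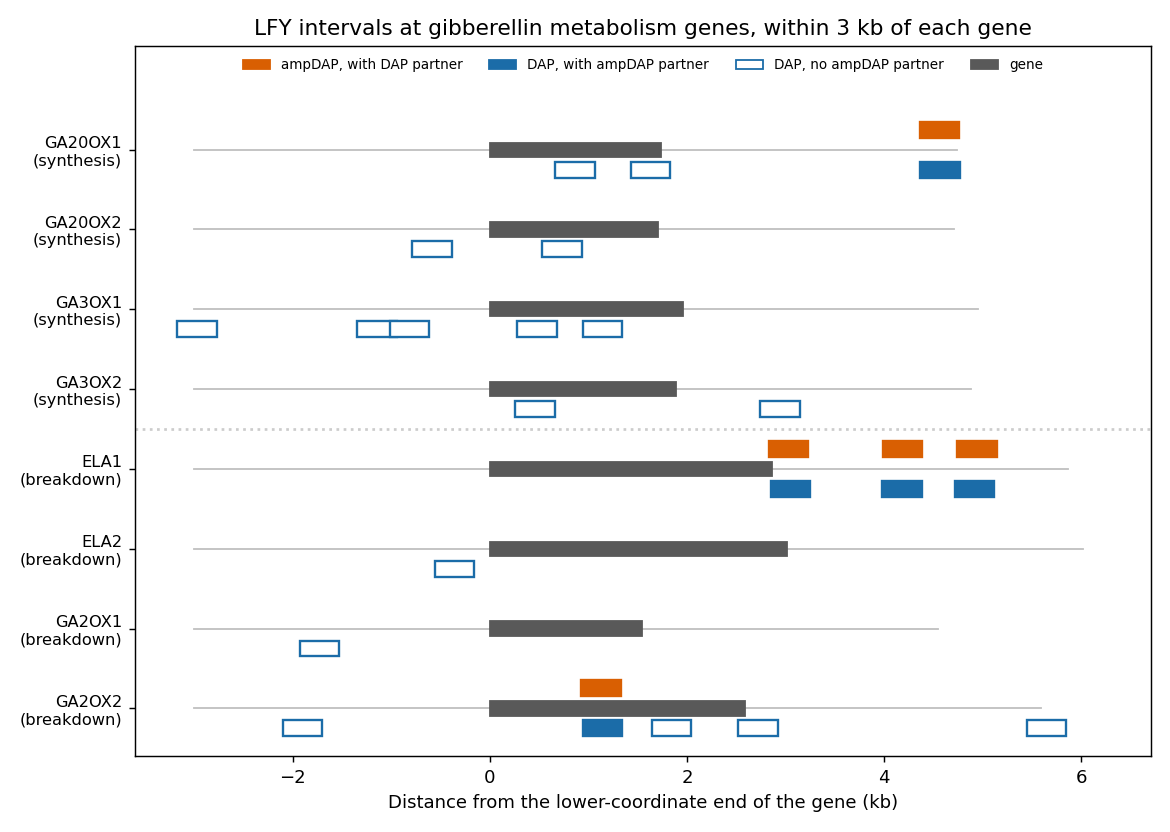
Map of the 8 loci, drawn to scale, with the distance from the lower-coordinate end of each gene in kb on the horizontal axis; boxes above each gene are ampDAP intervals, boxes below are DAP intervals, filled boxes have a partner in the other list, and each grey line spans 3 kb on both sides of the gene. The 3 ampDAP intervals beside ELA1 each sit over a DAP interval, while the 5 DAP intervals at GA3OX1 have no partner.

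ELA1 had the most ampDAP intervals of the 8 genes, with 3 on its higher-coordinate side, the side away from its neighbour ELA2. They lay at chr5:8570335-8570734, chr5:8571488-8571887 and chr5:8572246-8572645, with midpoints 167, 1320 and 2078 bp from the end of the gene. The DAP list held 3 intervals on the same side, at chr5:8570353-8570752, chr5:8571485-8571884 and chr5:8572219-8572618. The midpoints of the 3 pairs differed by 18, 3 and 27 bp, so every ELA1 interval was shared. None of these intervals had its midpoint in a protein-coding gene, and the outermost pair overlapped the annotated pseudogene AT5G24915. At least 3 ampDAP intervals occurred within 3 kb of 0.977% of protein-coding genes. Among the 4434 genes with exactly 3 DAP intervals, 58 (1.31%) had at least 3 ampDAP intervals. These cut-offs were taken from the counts at ELA1 itself, so the shares are descriptive and no test. If the higher-coordinate side of ELA1 is upstream, the chosen window holds all 3 intervals of each list, and otherwise it holds 1 of each.

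ELA2, which lies 691 bp from ELA1, had 0 ampDAP intervals and 1 DAP interval within 3 kb. The DAP interval was on its lower-coordinate side at chr5:8563245-8563644, 356 bp from the gene, and had no partner. No interval of either list fell in the windows of both genes, and none had its midpoint inside either gene. The neighbouring P450 genes differed in the shared intervals within 3 kb, with 3 at ELA1 and 0 at ELA2. The closest ampDAP midpoint to ELA2 was that of the first ELA1 interval, at 3722 bp.

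GA2OX2 had 1 ampDAP and 5 DAP intervals within 3 kb. The chosen window holds 4 of these DAP intervals whichever the strand. The ampDAP interval, at chr1:10538386-10538785, was the only one of the 5 ampDAP intervals with its midpoint inside a protein-coding gene, at 43.6% of the gene's length from its lower-coordinate end. Its DAP partner, at chr1:10538399-10538798, was 13 bp away. A second DAP interval inside the gene, at chr1:10539098-10539497, had no partner, and neither did the DAP intervals 132 bp beyond its higher-coordinate end, 1898 bp beyond its lower-coordinate end and 3061 bp beyond its higher-coordinate end. The last of these lay in the neighbouring gene AT1G30050 and overlapped the window by its edge. An ampDAP midpoint fell inside 11.4% of all protein-coding genes.

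GA2OX1 had 0 ampDAP intervals and 1 DAP interval. The DAP interval, at chr1:29509634-29510033, was 1728 bp from the lower-coordinate end of GA2OX1, and its midpoint was inside the neighbouring gene RIP4 (AT1G78430). GA2OX1 was the only one of the 8 genes with no DAP interval within 1 kb, whereas 63.0% of protein-coding genes had one. Its closest ampDAP midpoint was 15.1 kb away, and 75.5% of protein-coding genes had one at least as close. Among the 8 genes, GA2OX1 and ELA2 had the fewest DAP intervals within 3 kb on each side, and GA2OX2 and GA3OX1 the most.

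GA20OX1 was the only synthesis gene with an ampDAP interval. It lay at chr4:12995212-12995611, 2826 bp from the higher-coordinate end, and its DAP partner at chr4:12995216-12995615 was 4 bp away. This pair lies in the chosen window only if that side is upstream. It was also 2950 bp from the next gene, TRM23 (AT4G25430), so it was about as far from either. The 2 DAP intervals with midpoints inside GA20OX1, at chr4:12991514-12991913 and chr4:12992282-12992681, had no partner. GA20OX2 had 0 ampDAP intervals and 2 DAP intervals, of which the interval at chr5:21055710-21056109 was centred inside the gene and that at chr5:21054392-21054791 was 588 bp from its lower-coordinate end.

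GA3OX1 had 0 ampDAP intervals and 5 DAP intervals, a DAP count that 6.36% of protein-coding genes reached or passed. The intervals at chr1:5344666-5345065 and chr1:5345334-5345733 were centred inside the gene. The intervals at chr1:5343043-5343442 and chr1:5343374-5343773 overlapped each other and were centred in the neighbouring gene AT1G15540, 1146 and 815 bp from GA3OX1. The interval at chr1:5341218-5341617 was centred in AT1G15530, 2971 bp from GA3OX1. The closest ampDAP midpoint was 16.0 kb from the gene, and 77.1% of protein-coding genes had one at least as close. Of the 1745 genes with at least 5 DAP intervals, 541 (31.0%) likewise had 0 ampDAP intervals. The cut-off of 5 was taken from the count at GA3OX1 itself, so these shares are descriptive and no test.

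GA3OX2 had 0 ampDAP intervals and 2 DAP intervals, at chr1:30200723-30201122 inside the gene and at chr1:30203211-30203610, 1061 bp from its higher-coordinate end. Of the 2 DAP intervals inside GA3OX1, 1 was centred 1145 bp from the lower-coordinate end, at 58.6% of the gene length. The other was centred 477 bp from that end, near the 456 bp of the interval inside GA3OX2. The 477 and 456 bp places are 24.4% and 24.2% of the gene lengths. This match was read from the positions themselves and was not tested. The DAP midpoints inside GA20OX1 were at 49.7% and 94.0% of its length, and that inside GA20OX2 at 42.9%. No other GA3OX genes were compared in this way. Because the strands were not used here, it is not known whether the 477 and 456 bp places match in the transcripts. GA3OX2 lies 928 bp from its paralogue GA3OX4, and 1 DAP interval fell within 3 kb of both.

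The synthesis genes held 1 ampDAP interval and the breakdown genes 4, so that 20% of the ampDAP intervals were at synthesis genes (exact Clopper-Pearson 95% interval 0.505 to 71.6%). For the DAP list the counts were 12 at synthesis genes and 10 at breakdown genes, or 54.5% at synthesis genes (32.2 to 75.6%). Per kb of window, synthesis genes had 0.032 ampDAP intervals and breakdown genes 0.118, and the DAP values were 0.384 and 0.294. All protein-coding genes had 0.048 ampDAP and 0.231 DAP intervals per kb. The 95% intervals, which cover counting error only and treat intervals as independent, include equal shares in both lists. The ampDAP contrast rests on ELA1: without it, each role had 1 ampDAP interval, or 0.25 per synthesis gene and 0.333 per breakdown gene. In the DAP list the synthesis genes had 3.0 intervals each and the breakdown genes 2.5. Without GA3OX1 the synthesis genes had 2.33 each, below the breakdown genes, while per kb of window they had 0.3 against 0.294. Without ELA2 the breakdown genes had 3.0 DAP intervals each, as many as the synthesis genes.

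Sharing of the DAP intervals was then counted by role. At synthesis genes 1 of 12 DAP intervals (8.33%, 0.211 to 38.5%) had an ampDAP partner, and at breakdown genes 4 of 10 (40.0%, 12.2 to 73.8%). These 95% intervals overlap, but they treat neighbouring intervals as independent and are no test between the roles. Of the 4 shared DAP intervals at breakdown genes, 3 were those of ELA1, without which 1 of 7 was shared. Over both roles 5 of 22 DAP intervals were shared (22.7%, 7.82 to 45.4%), and the interval includes the 20.4% of the whole DAP list. The share was 10.5% without ELA1, 12.5% with the strands that give the fewest intervals and 13.3% with 1 kb on each side of the genes. All 5 ampDAP intervals had a DAP partner, as did 94.0% of the whole ampDAP list.

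The place of the DAP intervals was not tested between the roles. A DAP midpoint fell inside 4 of 4 synthesis genes and 1 of 4 breakdown genes, against 43.4% of protein-coding genes. The synthesis genes held 6 such midpoints and the breakdown genes 2, both in GA2OX2. Exons and introns were not used here. A further 3 DAP midpoints at synthesis loci and 2 at breakdown loci were inside a neighbouring gene, which left 3 and 6 outside protein-coding genes. At the 8 loci 59.1% of DAP midpoints were thus inside a protein-coding gene, against 76.1% in the whole list. None of the 6 DAP intervals inside synthesis genes had an ampDAP partner, and 1 of the 2 inside GA2OX2 had one. In the whole DAP list 3265 of the 4602 shared intervals were inside protein-coding genes. Of the 5 shared DAP intervals here, 4 were outside protein-coding genes, and 3 of these 4 were beside ELA1. Thus 4 of the 9 DAP intervals outside protein-coding genes were shared, against 24.8% in the whole list (23.7 to 26.0%). Inside genes 1 was shared, among 8 in member genes and 5 in neighbouring genes, against 19.1% in the whole list (18.5 to 19.7%).

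The windows end at 3 kb, and some intervals lay just beyond them. GA20OX2 had unshared DAP intervals centred 3282 and 3535 bp from the gene, GA3OX2 had 1 at 3508 bp, GA3OX1 had 1 at 4590 bp, and GA2OX1 had 1 at 4098 bp. On the far side of the ELA1 intervals a further DAP interval was centred 4019 bp from ELA1. The interval nearest to the limit on the inside was that of GA2OX2 at 3061 bp, whose edge reached the window, followed by that of GA3OX1 at 2971 bp and the shared pair of GA20OX1, at 2826 bp in the ampDAP list and 2830 bp in the DAP list.

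**Figure D2:**
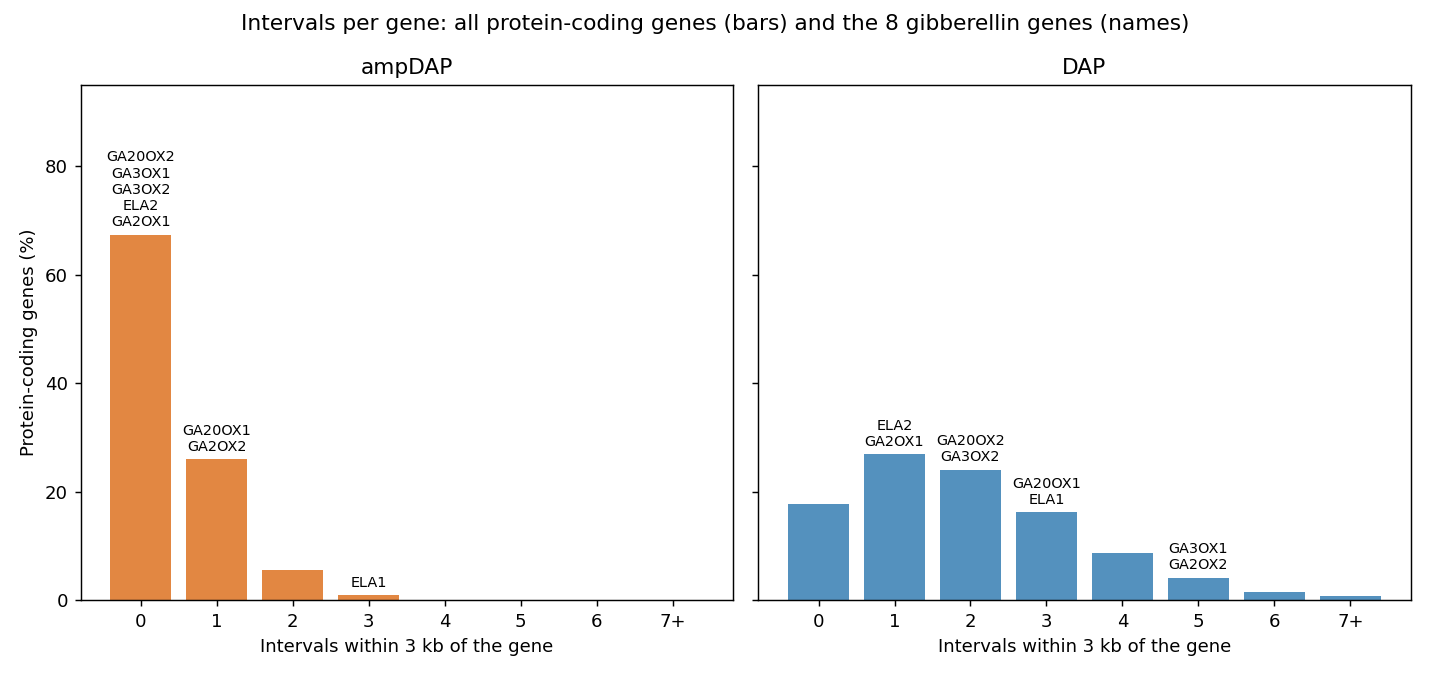
Share of the 27444 protein-coding genes (percent, vertical axis) by the number of intervals within 3 kb (horizontal axis) in the ampDAP list on the left and the DAP list on the right, with the names of the 8 gibberellin genes above the bar of their count. ELA1 stands in the ampDAP bar of 3 intervals, which holds 0.878% of genes, and GA3OX1 and GA2OX2 stand in the DAP bar of 5 intervals, which holds 4.17%.

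The same counts were made for 28 other genes of gibberellin metabolism and response. An ampDAP interval lay within 3 kb of 8 of them (28.6%) and a DAP interval within 3 kb of 22 (78.6%), near the 32.6% and 82.3% of all protein-coding genes. For 7 of the 8 an ampDAP interval was within 1 kb, and the exception was GAMT1. That makes 7 of the 28 genes, against 19.9% of protein-coding genes. An ampDAP midpoint fell inside 7 of the 28, against 11.4% of protein-coding genes, and this was not tested. The 28 genes held 9 ampDAP and 49 DAP intervals, and the 9 ampDAP intervals were all shared. Of their DAP intervals, 9 (18.4%, 8.76 to 32.0%) had an ampDAP partner. By role, 3 of 22 DAP intervals at the other synthesis genes were shared (13.6%, 2.91 to 34.9%) and 0 of 5 at the other breakdown genes (0%, 0 to 52.2%), which is not the order seen at the 8 genes. In DAP intervals per gene the order was that of the 8 genes, with 2.2 at the other synthesis genes and 1.0 at the other breakdown genes. Per kb of window these values were 0.245 and 0.115, and the difference was not tested.

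Among the other synthesis genes, 3 of 10 had an ampDAP interval. These were KAO1, an early oxidase of the pathway, with 1 ampDAP and 4 DAP intervals, GA20OX5 with 1 ampDAP and 4 DAP intervals, and GA3OX3 with 1 of each. In all 3 the ampDAP midpoint was inside the gene. GA3, the ent-kaurene oxidase, had 0 ampDAP and 5 DAP intervals, and GA20OX4 had 0 ampDAP and 3 DAP intervals. Among the other GA2OX genes, 0 of 5 had an ampDAP interval and 3 of 5 had a DAP interval, at most 2 each. The order of the roles in the ampDAP list was thus not that of the 8 genes, where 1 of 4 synthesis and 2 of 4 breakdown genes had an ampDAP interval. A DAP midpoint fell inside 6 of the 10 other synthesis genes and 1 of the 5 other breakdown genes. That was the order of the 8 genes, and it was not tested. Over both sets together, 4 of 14 synthesis genes (28.6%) and 2 of 9 breakdown genes (22.2%) had an ampDAP interval, and 12 of 14 (85.7%) and 7 of 9 (77.8%) had a DAP interval. By enzyme family, the 5 GA20OX genes held 2 ampDAP and 12 DAP intervals, the 4 GA3OX genes 1 and 9, and the 7 GA2OX genes 1 and 11.

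Of the genes outside metabolism, the gibberellin receptor genes GID1A and GID1B each had an ampDAP interval inside the gene, beside 3 and 2 DAP intervals. GID1C had 0 ampDAP intervals and 1 DAP interval. The DELLA genes encode growth repressors that are degraded when gibberellin binds its receptor. RGL1 was the DELLA gene with ampDAP intervals, 2 of them, each shared with 1 of its 2 DAP intervals. RGL3 had 0 ampDAP and 4 DAP intervals, and RGA had 0 of either. SPY, which encodes a glycosyltransferase that restrains gibberellin responses, had 1 ampDAP and 2 DAP intervals, and GAMT1, a gibberellin methyltransferase gene, had 1 of each.

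**Figure D3:**
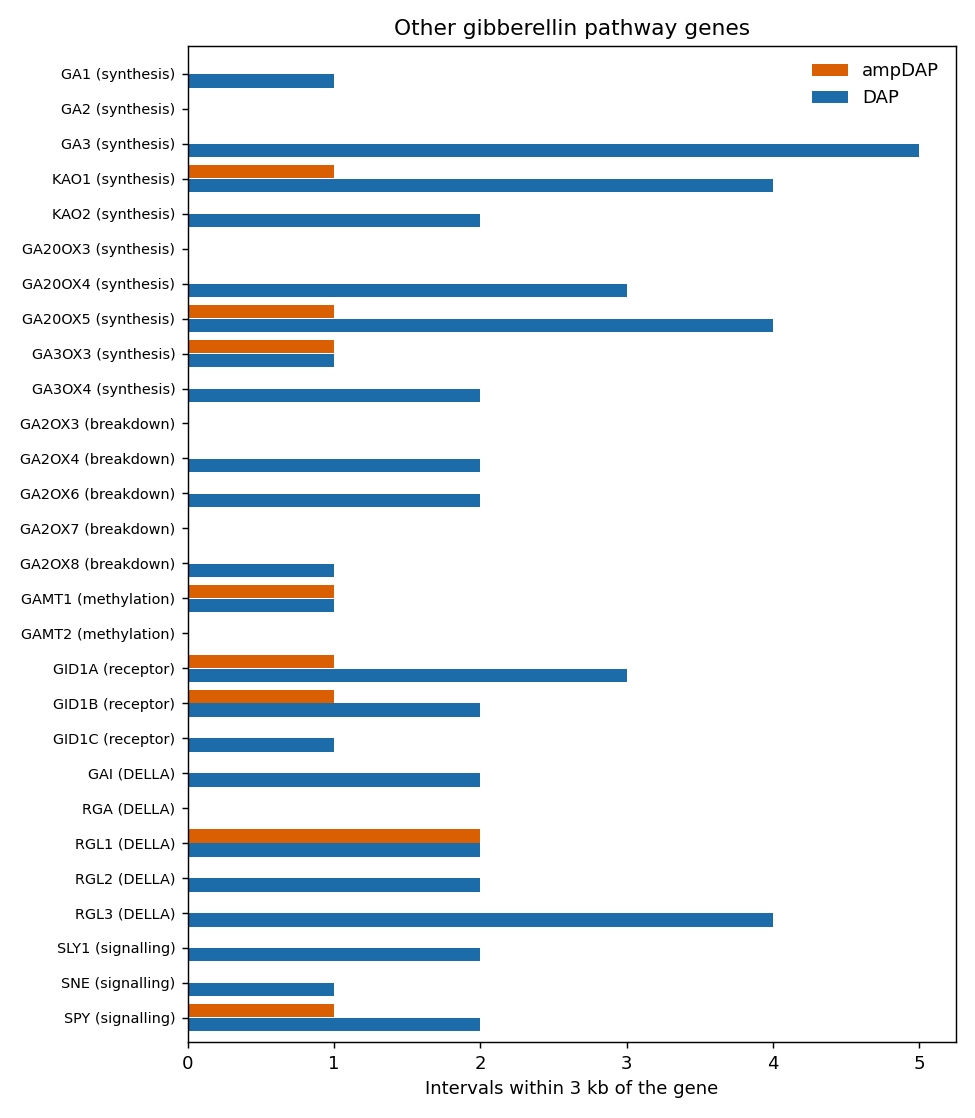
Number of ampDAP (upper bar) and DAP (lower bar) intervals within 3 kb of each of the 28 other gibberellin pathway genes, with the role of each gene in brackets. RGL1 has 2 ampDAP intervals and the other 7 genes with any have 1, while the DAP counts reach 5 at GA3.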

How the data were processed

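Per the submitters' processing notes, the authors used Bowtie2, SAMtools and MACS2 with the build TAIR10. Versions, thresholds, the control and any pooling are not given in the sources used here. The deposited files hold 3 columns with the chromosome, start and end of each interval and no other measure, so the values are positions of peaks, all 400 bp wide. Genes came from the RefSeq table of TAIR10.1, which keeps the nuclear chromosomes of TAIR10. As a check, 68.1% of ampDAP and 76.1% of DAP midpoints fell inside protein-coding genes, and shifts of the lists by 1000 bp or more in either direction lowered this to at most 64.0% and 68.5%. Gene strand, exons and genome sequence were not used here. All 36 gene identifiers matched the table. An interval counted at a gene when it overlapped the window by at least 1 bp, and 1 found at several genes of a set counted once. Planned results that needed strand or sequence (distance to the gene start, LFY core motifs) were not computed. All 8 genes were named, and of the other pathway genes those with an ampDAP interval or among the highest DAP counts, with others named where a comparison uses them. The genes and lists were chosen with earlier results of these data known. Counting was tested on simulated data. Python 3.11.15, pandas 2.3.3 and SciPy 1.17.1 were used. Read depth is unknown, so the only errors given are exact binomial intervals on numbers of listed peaks. Alternatives were other windows, partner rules, strands and leaving out each gene.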

Additional observations from a re-analysis of the deposited data

How the results depend on the processing

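Of 89 recomputed values, 82 stayed within 1.5 times the reported count or within the 95% interval of the reported share, 6 left it and 1 changed direction. The number of ampDAP intervals at the 8 genes (5) was 2 with 1 kb on each side of the gene, 2 with the strand that gives the fewest intervals at each gene and 2 without ELA1. The roles were compared by the synthesis mean per gene as a share of the sum of both means. For the ampDAP list this share (20%) was 0% with 1 kb on each side, 0% with the strands that give the fewest, and 0% without GA20OX1. For the DAP list it (54.5%) was 48.3% without GA3OX1, in the reverse direction, and 50% without ELA2 or without GA2OX1. The number of DAP intervals at the 8 genes ranged from 15 with 1 kb on each side to 29 with 5 kb. The strand alternatives, the rule of the nearest gene and the omission of genes other than ELA2 were chosen after seeing the data. The alternative of 5 kb upstream was run with 5 kb on each side, and those for the nearest gene start and for the core motif were not run. No paired analysis was possible because there was a single library per group, which also left no replicate to omit. A gene without an ampDAP interval is not shown to be unbound, because depth and threshold are unknown.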

Other observations

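The 3 ampDAP midpoints beside ELA1 spanned 1911 bp. Over the whole ampDAP list, 29 of 4872 runs of 3 consecutive midpoints on a chromosome (0.595%) spanned no more than that. This span was taken from ELA1 itself, so the count describes how tight the group is and is no test. The spacing was 1153 and 758 bp in the ampDAP list, and 1132 and 734 bp in the DAP list.

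The GA3OX1 region held DAP intervals only. Its 5 DAP midpoints spanned 4116 bp with 0 ampDAP intervals, and consecutive midpoints were 331 to 1825 bp apart. Some of these midpoints were in the neighbouring genes AT1G15530 and AT1G15540. Having 0 ampDAP intervals was shared by 31.0% of the genes with at least 5 DAP intervals. How often 5 DAP midpoints lie within such a span was not counted. At GA2OX2 the 5 DAP midpoints spanned 7546 bp and 1 was shared.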
